A study of Rattus norvegicus with 48 samples.

Results

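The miR-200 family was followed in rat blood plasma through its 5 mature miRNAs, rno-miR-200a-3p, rno-miR-200b-3p, rno-miR-200c-3p, rno-miR-141-3p and rno-miR-429 (rno stands for Rattus norvegicus and is left out from here on), which were chosen by name out of the 645 mature miRNAs counted. Plasma small RNA of 12 male rats, 12 weeks old at surgery and given as Sprague-Dawley in the study's methods but as Wistar elsewhere in its text, was sequenced before surgery (baseline) and 1, 4 and 8 weeks after a defect was drilled in the skull cap, which gave 48 samples. The study chose these rats from a larger set by bone volume, as the 6 best (strong) and 6 worst (weak) regenerators. Rats between these extremes are absent. Every rat carried a defect that was left empty or filled with a collagen-hydroxyapatite scaffold. The scaffold came with or without a plasmid for BMP2 and miR-590-5p or vesicles from mesenchymal stromal cells. These implants were spread unevenly over the strong and weak rats and are not given per rat in the labels, so strong against weak and implant cannot be told apart. Baseline samples carry no regeneration label of their own and took the group of their rat from its later samples.

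The miR-200 family is the best known miRNA family of epithelial cells. Its members repress Zeb1 and Zeb2, transcription factors that switch off E-cadherin, and so hold cells in the epithelial state, while the same factors repress the family's genes. The miRNAs come from a pair of gene clusters, one holding miR-200b, miR-200a and miR-429 and the other miR-200c and miR-141. Plasma holds small RNA shed by many tissues, and a lower plasma level cannot be assigned to fewer epithelial cells, less RNA per cell or less release from them.

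The sequences are shown because the family falls into groups with different seeds, the bases that pair with target mRNAs, and because its members are so alike that short reads can be given to the wrong one. RefSeq (build GRCr8) held a mature entry for 2 of the 5 members, both written here 5′ to 3′ with the seed, bases 2 to 8, in capitals. Both lie on the minus strand, miR-200c-3p at chr4:159209969-159209989 and miR-141-3p at chr4:159209540-159209561.
miR-200c-3p: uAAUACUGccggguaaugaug
miR-141-3p: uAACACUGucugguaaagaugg
The hairpin precursors of all 5 members were held by the same source and are shown with the matching seed letters, found by search, in capitals. All are on the minus strand: Mir200b at chr5:171931495-171931589, Mir200a at chr5:171930717-171930805, Mir429 at chr5:171929682-171929766, Mir200c at chr4:159209965-159210033 and Mir141 at chr4:159209525-159209618.
Mir200a: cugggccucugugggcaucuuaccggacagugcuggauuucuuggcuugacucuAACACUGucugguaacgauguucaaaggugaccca
Mir141: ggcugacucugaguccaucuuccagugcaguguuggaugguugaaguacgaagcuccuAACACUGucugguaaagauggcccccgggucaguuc
Mir200b: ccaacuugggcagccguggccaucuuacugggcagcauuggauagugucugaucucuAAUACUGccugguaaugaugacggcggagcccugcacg
Mir200c: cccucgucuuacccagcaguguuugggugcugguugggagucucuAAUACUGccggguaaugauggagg
Mir429: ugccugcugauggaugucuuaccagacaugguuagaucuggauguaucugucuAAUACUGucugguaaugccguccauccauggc

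The hairpins fell into 2 seed groups, Mir200a and Mir141 with AACACUG and Mir200b, Mir200c and Mir429 with AAUACUG. The letters of each seed were found, at any place on the strand of the hairpin, in 4 of 419 rat hairpins (0.955%). AACACUG was also in Mir3575 and Mir3587 and AAUACUG also in Mir145, which does not make it a seed there. Of 693 mature entries only 1 had AACACUG as its seed (miR-141-3p) and 1 had AAUACUG (miR-200c-3p), the other members having no mature entry. The seed groups cut across the gene clusters: Mir200a, Mir200b and Mir429 start within 1813 bases of each other on chromosome 5, and Mir200c and Mir141 start 440 bases apart on chromosome 4. Over the 17 bases that begin with the base before the seed, counted from 1, miR-200a-3p and miR-141-3p differed at 1 base (C17A), miR-200b-3p and miR-200c-3p at 1 base (U11G), and miR-200b-3p and miR-429 at 1 base (C9U). Reads were kept from 17 bases and were matched with up to 1 mismatch, so a short read with a sequencing error could be given to the other member of such a pair, and the split of reads inside each of these pairs is uncertain to that extent.

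All 5 members were found in every one of the 48 samples. Levels are given as RPM, the reads of a miRNA per 1000000 reads given to any of the 645 miRNAs in that sample (393259 to 1586398, median 796311), and they compare miRNAs only as far as ligation to the sequencing adapter is alike between them. miR-429 was the most abundant member, with a mean of 952 RPM (445 to 2868) and rank 77 of 645 miRNAs. miR-200a-3p followed at 628 RPM (237 to 1407) and rank 97. These neighbours were close, and miR-429 exceeded miR-200a-3p in 40 of 48 samples, from 7 of 12 at week 4 to 12 of 12 at week 8. miR-200c-3p averaged 296 RPM (89.4 to 981) and miR-141-3p 221 RPM (81.8 to 482), although they come from the same cluster and rank only 124 and 141. Their order was not stable, with miR-200c-3p above miR-141-3p in 36 of 48 samples and in 5 of 12 at week 4. miR-200b-3p, the scarcest member, averaged 67.5 RPM (19.0 to 145) at rank 199 and was below miR-141-3p in 48 of 48 samples.

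Counting error was small for the abundant members and large for miR-200b-3p. Its lowest sample, a weak regenerator at week 1, held 8 reads, or 19.0 RPM with an exact 95% binomial interval of 8.19 to 37.4 RPM. The lowest miR-429 sample held 448 reads, or 445 RPM with an interval of 405 to 488 RPM. Such intervals cover counting error only, since reads were not collapsed to molecules.

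**Figure D1:**
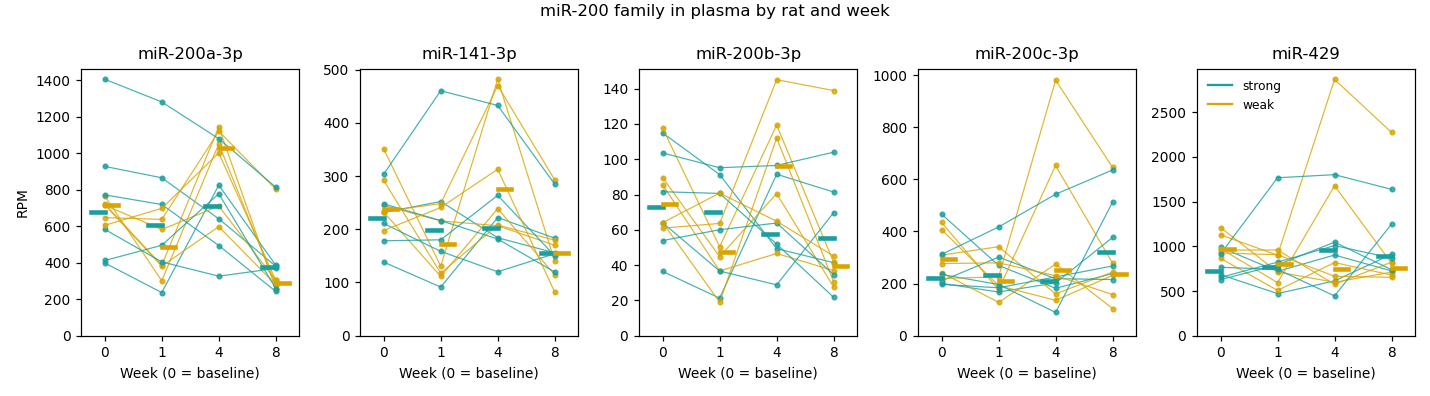
RPM (linear axis from 0, its own scale in each panel) of the 5 miR-200 family members in the 12 rats at baseline (week 0) and weeks 1, 4 and 8, evenly spaced on the x axis, with each line 1 rat, strong regenerators in teal and weak in gold, and short bars at the median of each group. miR-200a-3p stood lower than its own baseline in 11 of 12 rats at week 8, while miR-429 and miR-200c-3p were higher in 6 rats and lower in 6.

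The question put to the time course was whether circulating levels moved as the defect healed. Each week was compared with baseline by the edgeR quasi-likelihood test across all miRNAs, two-sided, with a Benjamini-Hochberg false discovery rate (FDR) under 0.05 as the threshold. The design treats the 4 samples of a rat as independent, and comparisons with baseline share the baseline samples. One week after surgery no member passed the test, where 21.6% of the miRNAs tested did (9.05% as lower and 12.5% as higher). The baseline median of miR-200a-3p was 717 RPM (399 to 1407) and its week 1 median 539 RPM (237 to 1282), with 10 of 12 rats lower. Its log2 fold change was -0.25 (SE 0.21, FDR 0.434). Those of the other members lay between -0.38 for miR-200b-3p (SE 0.25, FDR 0.290) and -0.04 for miR-429 (SE 0.20, FDR 0.900). At week 4 again no member passed, against 4.19% of all miRNAs (4.03% as lower and 0.155% as higher), and the 5 log2 fold changes lay between 0.09 (miR-200b-3p) and 0.32 (miR-429), FDR 0.398 to 0.897. No member had an unadjusted p under 0.05 at either week, in edgeR, DESeq2 or limma-voom, and scaling to the spike-in described below turned 4 of the 5 week 4 values negative.

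At week 8, 1 of the 5 members passed the test, miR-200a-3p, which fell, where 26.1% of all miRNAs tested passed as lower and 14.2% as higher. The rno-miR-200a-3p level had a median of 304 RPM (243 to 815) at week 8 against 717 RPM at baseline, and was below its own baseline in 11 of 12 rats. The ranges overlapped because rats 29 (strong) and 25 (weak) were at 815 and 803 RPM while the other 10 lay at or under 387 RPM. Rat 29 had come down from 1407 RPM, and rat 25 was the 1 rat above its own baseline (648 RPM). The log2 fold change was -0.85 (SE 0.21, FDR 0.000991). miR-141-3p, which carries the same seed, had a median of 155 RPM (81.8 to 293) at week 8 against 233 RPM (138 to 351), with 10 of 12 rats lower. Its log2 fold change of -0.45 missed the threshold (SE 0.20, FDR 0.0613) but passed it when the rat was a block in the fit (-0.47, SE 0.17, FDR 0.0196).

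The remaining members did not pass at week 8. miR-200b-3p had a median of 41.5 RPM (21.8 to 139) against 72.9 RPM (36.4 to 118) at baseline, with 8 of 12 rats lower and a log2 fold change of -0.45 (SE 0.25, FDR 0.153). Without rat 25 the miR-200b-3p value was -0.67 (FDR 0.0283) and that of miR-141-3p -0.55 (FDR 0.0271), both past the threshold. miR-200c-3p went from a median of 260 RPM (197 to 467) to 256 RPM (104 to 646). In miR-429 the medians were 922 RPM (628 to 1211) and 818 RPM (653 to 2275). Their log2 fold changes were 0.17 (SE 0.26, FDR 0.630) and 0.21 (SE 0.20, FDR 0.422), with both values negative once the data were scaled to the spike-in. Without rat 25 they were 0.0096 (SE 0.24) for miR-200c-3p and 0.075 (SE 0.18) for miR-429. Both miRNAs were higher than at baseline in 5 of 6 strong rats and lower in 5 of 6 weak rats, but the difference between the groups' changes did not pass the test (FDR 1.00 for each of the 5 members).

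Between adjacent weeks, no member passed from week 1 to week 4, where 0% of all miRNAs did. All 5 log2 values were positive, from 0.36 to 0.50, and 2 members had an unadjusted p under 0.05 in edgeR (2 in limma-voom and 3 in DESeq2, with no call by either). From week 4 to week 8, 2 members of the AACACUG seed group passed, both lower, where 25.8% of miRNAs passed as lower. miR-200a-3p went from a median of 802 RPM (327 to 1145) to 304 RPM, a log2 fold change of -1.11 (SE 0.22, FDR 2.85e-05). miR-141-3p went from 230.5 RPM (120.2 to 482) to 155 RPM, a change of -0.73 (SE 0.20, FDR 0.00208). miR-200b-3p, at -0.55 (FDR 0.0778), passed with the rat as a block (-0.58, FDR 0.0479) and without rat 25 (-0.65, FDR 0.0377). miR-200c-3p and miR-429 had values of 0.00 (SE 0.26) and -0.10 (SE 0.20), whose signs changed with the scaling.

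**Figure D2:**
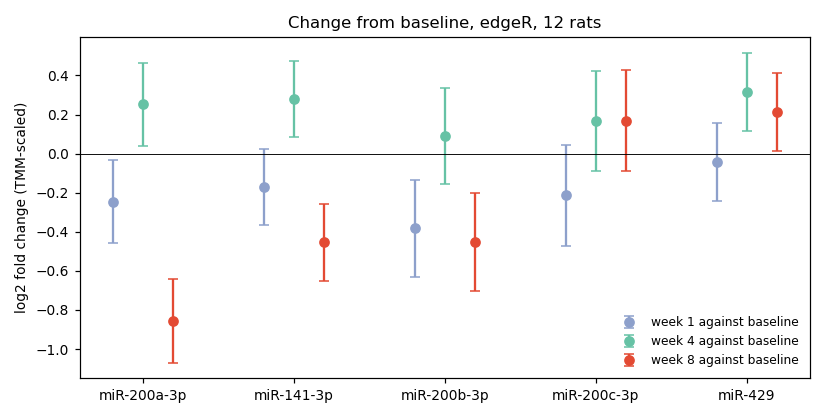
Log2 fold changes of the 5 members from edgeR at weeks 1, 4 and 8 against baseline, with bars of 1 SE. At week 8 miR-200a-3p lay at -0.85 and miR-141-3p and miR-200b-3p at -0.45, while miR-200c-3p and miR-429 lay at 0.17 and 0.21, values that turn negative under spike-in scaling.

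The week 8 samples stood apart from all others in their reads of the spike-in UniSp2. The other spike-ins counted were not examined here, and the study reported a comparable recovery of its spike-ins between samples. Reads of UniSp2, a synthetic RNA added in a fixed volume before RNA extraction, numbered 91.1 to 144 per 1000 reads of miRNAs at week 8 and 23.3 to 60.4 at the other weeks, with no overlap. This ratio rises with more spike-in recovered or with less miRNA in the sample, and which of these moved was not tested. Scaled to UniSp2, the median of the 310 miRNAs with at least 10 RPM shifted by -2.01 at week 8, against -0.12 in the main fit. All 5 members then passed as lower, from -2.73 for miR-200a-3p to -1.68 for miR-429 (FDR at most 4.45e-06). Against that median of -2.01, miR-200a-3p (SE 0.26) lay lower. The other members lay within about 1 SE of it or little more. These were miR-200b-3p (-2.35, SE 0.31), miR-141-3p (-2.36, SE 0.25), miR-200c-3p (-1.74, SE 0.33) and miR-429 (SE 0.27). Time since surgery and handling of the week 8 samples cannot be told apart, and this holds for every week 8 value given here. Markers of red blood cells and liver also moved, and not at week 8 alone. At week 1, 4 of 4 red blood cell miRNAs (miR-451-5p, miR-144-3p, miR-144-5p and miR-486) passed as higher. So did 3 of 4 liver miRNAs tested, where 12.5% of all miRNAs tested did. At week 8, 2 of the 4 red blood cell miRNAs were higher and 1 lower. Their summed level was then 177486 to 311316 RPM against 102266 to 201357 RPM at baseline. Of 5 liver miRNAs 1 was higher and 2 lower at week 8, and the liver sum was 3678 to 11780 RPM against 4561 to 14667 RPM. That sum mostly follows a single miRNA, miR-192-5p, which averaged 7465 RPM over the 48 samples, where the sum averaged 9599 RPM. miR-451-5p and miR-122-5p were above 0 in every sample, while miR-194-5p of the liver list was at 0 in its lowest baseline sample. The part of these markers in the family's changes was not tested.

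The ratio of 2 members within a sample does not depend on how samples are scaled, so the make-up of the family was followed by ratios, each rat against its own baseline. For the 10 pairs at 3 weeks, log2 ratios of counts plus 0.5 were tested by a two-sided exact sign-flip permutation test over the 12 rats, with p adjusted over 30 tests. At week 8, 4 ratios changed, and at weeks 1 and 4 none did (smallest adjusted p 0.0993, with 2 unadjusted p under 0.05 at week 1). The ratio of miR-200a-3p to miR-429, neighbours in the same cluster, had a median of 0.744 at baseline (0.574 to 1.53) and 0.382 at week 8 (0.281 to 0.526), and these ranges did not overlap. It fell in 12 of 12 rats by a mean log2 change of -1.03 ± 0.48 (SD, n = 12, exact permutation p = 0.000488, the smallest this test can give, adjusted p = 0.00732). The ratio of miR-200a-3p to miR-200c-3p fell in 12 of 12 rats from a median of 2.25 to 1.23, with a mean log2 change of -0.97 ± 0.58 (SD, n = 12, exact permutation p = 0.000488, adjusted p = 0.00732). Both ratios set a member of one seed group over a member of the other, but not every such ratio passed at week 8. miR-200a-3p over miR-200b-3p had a mean log2 change of -0.33 (exact permutation adjusted p = 0.132). For miR-200b-3p over miR-141-3p it was -0.07 (exact permutation adjusted p = 0.807).

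The ratio of miR-141-3p to miR-429 fell in 11 of 12 rats from a median of 0.262 to 0.174, by -0.63 ± 0.48 (SD, n = 12, exact permutation adjusted p = 0.0146). Inside the AACACUG group, miR-200a-3p over miR-141-3p fell in 11 of 12 rats from 2.90 to 2.25, by -0.40 ± 0.31 (SD, n = 12, exact permutation adjusted p = 0.0256). This last call was lost when any one of rats 6, 16, 17, 21 or 29 was left out (highest adjusted p 0.0513), and the other 3 held without any one rat. Inside the AAUACUG group, miR-200c-3p over miR-429 had a mean log2 change of -0.06 (exact permutation adjusted p = 0.794). The changes of miR-200b-3p against miR-200c-3p (-0.64) and against miR-429 (-0.70) and of miR-200c-3p against miR-141-3p (0.57) each had an adjusted p of 0.0502 by the exact permutation test.

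Expressed as shares, miR-200a-3p made up 32.0 ± 5.87% (SD, n = 12) of the reads of the 5 members before surgery. The share was 29.8 ± 4.08% in week 1, then 33.8 ± 7.70% in week 4 and 20.0 ± 3.16% in week 8. miR-429 made up 40.6 ± 5.61% at baseline and 51.9 ± 3.84% at week 8. The summed level of the family had medians of 2231, 1895, 2118 and 1535 RPM at baseline and weeks 1, 4 and 8.

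**Figure D3:**
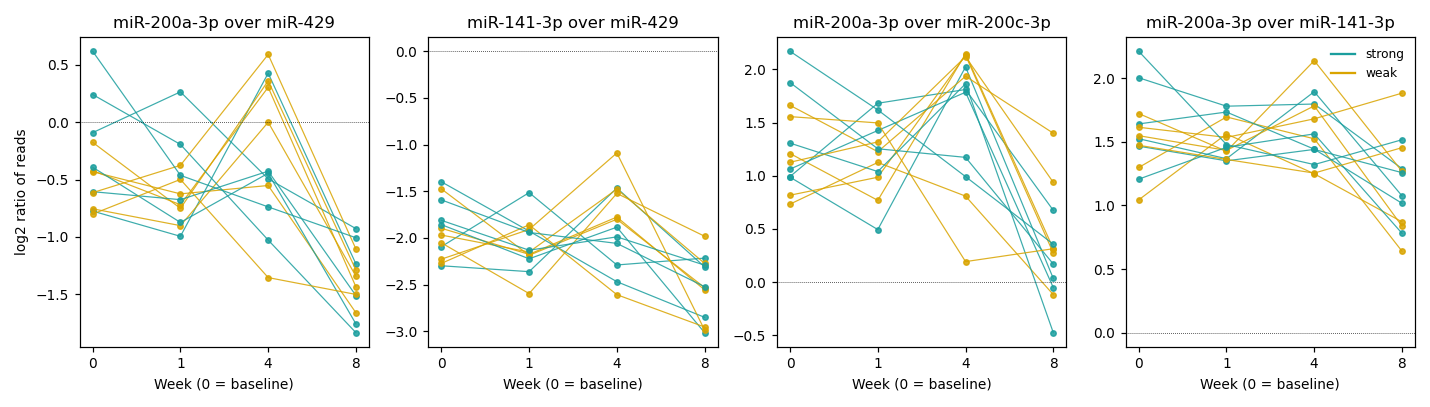
Log2 ratios of reads for the 4 pairs of members whose ratio changed at week 8, by week (evenly spaced), with each line 1 rat and strong and weak regenerators in different colours. The ratio of miR-200a-3p to miR-429 fell in 12 of 12 rats, from a median of 0.744 to 0.382 on the linear scale.

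Strong and weak regenerators were compared to ask whether circulating miRNAs differ with the outcome of healing. Over all weeks no member passed the edgeR test, and 0% of all miRNAs did. The study itself reported miR-133a-3p as significantly higher and miR-375-3p as significantly lower in strong rats over all time points. Here miR-375-3p was at the lowest FDR of all miRNAs, 0.103 (log2 difference -0.44, SE 0.12). Why the calls differ was not tested. The members' log2 differences, strong minus weak, ran from -0.15 to 0.00 (FDR 0.758 to 0.997), with no unadjusted p under 0.05 among the members in edgeR, DESeq2 or limma-voom. Tested one week at a time, no member passed either, where 0% of all miRNAs did before surgery and in weeks 1 and 4, and 0.155% in week 8 (1 miRNA, miR-203b-3p, given with the other epithelial miRNAs). The only unadjusted p under 0.05 among members belonged to miR-200c-3p at week 4 in edgeR (0.0490), with none in DESeq2 or limma-voom. The FDR of every member at that week was 0.851 or more. No member's change from baseline to week 1, 4 or 8 differed between the groups, where 0% of miRNAs did at each week.

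With the rat as the unit, mean log2(RPM + 1) was compared by a two-sided exact permutation test over all splits of the 12 rats into 6 and 6, 25 tests in all, for which p cannot go below 0.00216. The lowest unadjusted p belonged to miR-429 before surgery, although other members had larger differences at weeks 4 and 8. Its baseline level had a median of 725 RPM (628 to 989) in strong rats and 967 RPM (866 to 1211) in weak rats, and the groups overlapped. The difference in means was -0.40 (9.57 against 9.97, n = 6 each, exact permutation p = 0.0238), and it did not survive adjustment (adjusted p = 0.595).

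At week 4 all 5 members had lower means in strong rats, by 0.16 to 0.58 on the log2 scale, and none passed. miR-200a-3p, for which the unadjusted p was lowest at this week, had a median of 710 RPM (327 to 1081) in strong and 1027 RPM (598 to 1145) in weak rats, a difference of -0.50 (exact permutation p = 0.119, adjusted p = 0.879). At week 8 the differences in mean log2(RPM + 1) ran from 0.14 for miR-429 to 0.55 for miR-200c-3p (adjusted p = 0.879 each by the exact permutation test). The sign was not stable, since edgeR gave -0.05 for miR-429 and -0.01 for miR-141-3p in the same comparison. miR-200c-3p then had a median of 322 RPM (216 to 636) in strong and 238 RPM (104 to 646) in weak rats.

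The members rose and fell together from rat to rat. Within each week, Pearson's r and Spearman's rho of log2(RPM + 1) over the 12 rats were tested by permutation (100000 draws, two-sided, adjusted over 80 tests), and 37 of 40 r and 33 of 40 rho had an adjusted p under 0.05. At baseline r ran from 0.47 to 0.87 with a median of 0.68, and 7 of 10 pairs passed. At weeks 1, 4 and 8, 10 of 10 pairs passed by r, with medians of 0.87, 0.84 and 0.82. By rho, 6 of 10 pairs passed at baseline, 10 of 10 at weeks 1 and 4 and 7 of 10 at week 8. All members share the total of each library, and reads given to the wrong member of a near-identical pair would raise that pair's r. Pairs of other miRNAs were not tested in this way, so these counts do not show a trait particular to the family.

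The closest pair at any week was miR-200a-3p and miR-141-3p at week 1 (r = 0.98, rho = 0.97, permutation p = 1e-05 each, the smallest these draws can give, adjusted p = 0.0004). They come from different chromosomes and share a seed. Of the other seed group, miR-200c-3p and miR-429 reached r = 0.95 at week 4 and 0.87 at week 8 (rho 0.86 and 0.87, permutation adjusted p = 0.0004 for each r). These miRNAs too come from different chromosomes. The loosest pair was miR-200a-3p and miR-429 at baseline, although their hairpins lie 1035 bases apart (r = 0.47, rho = 0.31, permutation p = 0.127 and 0.330).

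The relations were also computed without the 2 rats farthest from the median of the first member, which narrows the range and so tends to lower r. Then r ran from 0.35 to 0.80 before surgery, 0.49 to 0.95 (week 1), 0.38 to 0.89 (week 4) and 0.26 to 0.82 (week 8). The relation of miR-200a-3p with miR-429 at week 8 went from 0.88 to 0.39 (rho 0.53 with all rats), and lay between 0.79 and 0.91 with any single rat left out. That of miR-200b-3p with miR-141-3p went from 0.70 to 0.26, and lay between 0.56 and 0.84 with any single rat left out. miR-200c-3p with miR-429 was at 0.82 without the 2 rats. Within the regeneration groups, 10 of 10 pairs had r above 0.5 at every week in strong rats, as in weak rats at weeks 1, 4 and 8. The 6 weak rats at baseline were the exception, with r from -0.15 to 0.90 and 4 of 10 pairs above 0.5.

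**Figure D4:**
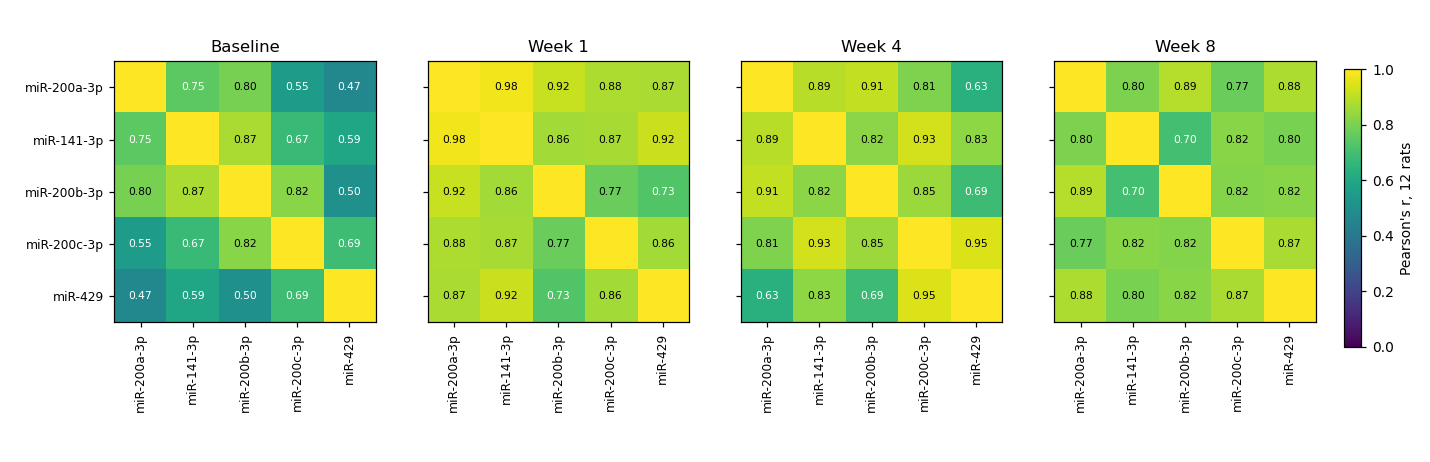
Pearson's r of log2(RPM + 1) over 12 rats for each pair of the 5 members, 1 panel per week, with colour from 0 to 1. The diagonal is each member with itself, and the other values run from 0.47 to 0.87 at baseline and reach 0.98 for miR-200a-3p with miR-141-3p at week 1.

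Over all 48 samples, given as a description since the samples of a rat are not independent, the pairs that share a seed or the chromosome 5 cluster did not behave alike. r was 0.89 for miR-200a-3p with miR-141-3p, 0.88 for miR-200c-3p with miR-429 and 0.86 for miR-200a-3p with miR-200b-3p. It was 0.55 both for miR-200a-3p with miR-429 and for miR-200a-3p with miR-200c-3p. With each week's mean taken out, these last values became 0.71 and 0.73 and the first 3 were 0.87, 0.89 and 0.88. Sharing a seed did not always go with a high r. Over the 48 samples miR-200b-3p was at 0.72 with miR-200c-3p and 0.65 with miR-429, which share its seed. With miR-141-3p, of the other seed group, it was at 0.83.

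The miRNAs most like each member were taken from the 305 others with at least 10 RPM, by r over the 48 samples and with no test. For miR-200a-3p these were miR-10b-5p (r = 0.86), miR-146a-5p (0.85) and miR-24-3p (0.83), and for miR-200b-3p they were miR-10b-5p (0.74), miR-182 (0.70) and miR-146b-5p (0.70). For miR-141-3p they were miR-182 (0.72), miR-10b-5p (0.71) and miR-183-5p (0.71). For miR-429 they were miR-183-5p (0.89), miR-31a-5p (0.83) and miR-182 (0.83), and for miR-200c-3p the same 3 miRNAs, miR-31a-5p leading (0.86). miR-183-5p and miR-182 come from a cluster known from sensory and other epithelia. Ranked among the 309 other miRNAs with at least 10 RPM, miR-141-3p was 1st and miR-200b-3p 3rd in likeness to miR-200a-3p, while miR-429 was 71st and miR-200c-3p 73rd. Epithelial miRNAs outside the family were also far down for miR-200a-3p. miR-182 was 63rd (r = 0.59), miR-183-5p 76th, miR-31a-5p 89th, miR-205 105th, miR-203a-3p 107th and miR-375-3p 194th (r = 0.04). The liver miRNA miR-122-5p was 70th (r = 0.55). In likeness to miR-429 the same epithelial miRNAs held ranks from 1 (miR-183-5p) to 12 (miR-375-3p). Seen from the other members the family ranked higher, at ranks 1 to 12 for miR-200b-3p and for miR-200c-3p, 1 to 5 for miR-141-3p and 2 to 15 for miR-429. The red blood cell miRNA miR-451-5p, which rose at week 8 (log2 fold change 1.04, SE 0.19, FDR 1.03e-05), had r = -0.75 with miR-200a-3p, -0.56 with miR-141-3p and -0.55 with miR-200b-3p over the 48 samples. With miR-200c-3p and miR-429 it was -0.19 and -0.17. These values pool weeks between which miR-451-5p and miR-200a-3p both moved.

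The counts list 4 of the opposite arms of the hairpins. Of these 1 was tested at week 1 and 4 in each other comparison of weeks, and none of those tested passed. miR-200b-5p was not far from its partner arm, with a mean of 43.5 RPM against 67.5 RPM for miR-200b-3p, and exceeded it in 8 of 48 samples. miR-200b-5p averaged 43.7 ± 14.3 RPM (SD, n = 12) at baseline and 40.3 ± 18.8 RPM at week 8, a log2 fold change of -0.10 (SE 0.20, FDR 0.735). miR-200a-5p, from the same hairpin as miR-200a-3p, averaged 7.25 ± 4.04 RPM at baseline and 10.5 ± 5.73 RPM at week 8 (log2 fold change 0.52, SE 0.32, FDR 0.200), with 9 of 12 rats higher. It held 1 to 18 reads a sample, so its change had a low precision at this depth. miR-200c-5p and miR-141-5p had 0 to 6 reads.

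Other miRNAs known from epithelia were listed for comparison: miR-203a-3p, miR-203b-3p, miR-205, miR-183-5p, miR-96-5p, miR-182, miR-375-3p and miR-31a-5p. Of these, 0 of 6 tested passed at week 1 and 0 of 8 at week 4. At week 8, miR-375-3p, abundant in pancreatic islets and gut, was higher (log2 fold change 0.68, SE 0.18, FDR 0.00222) and miR-203b-3p, of a family known from skin, lower (-0.77, SE 0.31, FDR 0.0443). miR-203b-3p had a median of 17.1 RPM at baseline and 2.11 RPM at week 8 in weak rats, with 6 of 6 lower, and of 15.8 and 12.3 RPM in strong rats, with 4 of 6 lower, from 1 to 15 reads a sample at week 8. Strong against weak at week 8 it differed by 2.13 (SE 0.47, FDR 0.0223), while the difference between the groups' changes did not pass (2.35, SE 0.59, FDR 0.138). From week 4 to week 8 the same 2 miRNAs passed, miR-375-3p at 0.55 (FDR 0.0135) and miR-203b-3p at -1.31 (FDR 0.000444). The median log2 fold change of the 8 was 0.01 at week 8, that of the 5 members -0.45 and that of all miRNAs tested -0.26.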

How the data were processed

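Plasma RNA was made into libraries by a single-adapter ligation protocol. Per the study's methods the authors trimmed adapters with cutadapt 3.3, kept reads of at least 17 bases, aligned them with Bowtie 1.3.0 to the rat genome (up to 2 mismatches) and to miRBase (up to 1) and counted with miRDeep2. The submitters' processing notes name a human build (GRCh38.p12) instead, and which was used was not settled here. The deposited values are counts, raw reads per mature miRNA and sample. The authors' own comparisons were not used.

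Reads of 3 spike-ins were left out of library sizes. RPM was computed from the counts. edgeR 4.0.16 (quasi-likelihood as in version 3, TMM, R 4.3.3) was fitted to all 48 samples with week as a factor, or with 8 groups of week and regeneration, and DESeq2's independent filter on mean abundance was applied. DESeq2 1.42.0, limma 3.58.1 (voom), other scalings and filters, a block for the rat and leaving out each rat were alternatives. Scripts were tested on simulated data. Permutation tests were written with NumPy 2.4.6, with ranks from SciPy 1.17.1. The p-values of edgeR treat samples of a rat as independent.

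Totals were 393259 to 1586398 reads (median 796311), which sets the precision of each count. No 2 samples agreed within sampling noise (lowest chi-square per degree of freedom 16.4 over 1128 pairs). Samples of a rat are paired by the animal label. Their deviations from group means correlated by 0.107 on average (different rats -0.03), and 6 of 12 rats exceeded 0.1.

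The members and all lists were chosen with earlier results of these data known. The text names the 5 members, the other arms of their hairpins, epithelial list miRNAs with an FDR under 0.05 (red blood cell and liver lists mostly as counts) and, per member, the 3 most alike miRNAs. Sequences and coordinates are from RefSeq, build GRCr8, and were not compared with the build of the counts.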

Additional observations from a re-analysis of the deposited data

Results flagged for a closer look

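Sets of values were taken in groups of 6 rats of one week and regeneration class. In 7 of 40 sets (17.5%), a sample lay far from the other 5 by Dixon's criterion. The sets are not independent, since the members correlate and were measured in the same rats. The count is therefore not compared with chance. Rats 25 and 29 held all of the flagged samples, each time as the highest.

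Rat 25, a weak regenerator, stood apart at week 8 in 4 members. miR-200a-3p was at 803 RPM (next rat 304), miR-200b-3p at 139 RPM (next 45.2), miR-200c-3p at 646 RPM (next 278) and miR-429 at 2275 RPM (next 824).

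Rat 29, a strong regenerator, stood apart at 3 different weeks. miR-429 was at 1768 RPM at week 1 (next 823), miR-200c-3p at 543 RPM at week 4 (next 226) and miR-200a-3p at 815 RPM at week 8 (next 387).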

How the results depend on the processing

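Directions and calls of the 65 log2 fold changes of members were recomputed 1380 times: 1296 kept both, 11 passed the threshold anew and 73 changed sign, 3 of these with an FDR under 0.05. The fall of miR-200a-3p at week 8 held in every setting, from -2.73 to -0.70 (FDR at most 0.00821), as did its fall from week 4 (FDR at most 0.000699). Members called at week 8 against baseline numbered 1, but 5 with UniSp2 scaling and 2 each with limma-voom, with the rat as a replicate block (miR-141-3p added, -0.47) and with only the compared weeks fitted, and 1 to 3 leaving out 1 rat (3 without rat 25). From week 4 to week 8 they numbered 2, but 5 with UniSp2 scaling and 3 with the block or without rat 25 (2 to 3 leaving out 1 rat). The block changed no call but those of miR-141-3p and, from week 4 to 8, miR-200b-3p.

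UniSp2 scaling turned week 4 values of miR-200a-3p (-0.0692), miR-200b-3p (-0.22), miR-200c-3p (-0.0400) and miR-141-3p (-0.0380), week 8 values of miR-200c-3p (-1.74) and miR-429 (-1.68), the week 4 to 8 value of miR-200c-3p (-1.70) and, over all weeks, strong minus weak miR-200a-3p (-0.0719). That last value was also turned by limma-voom (-0.0718), summed counts of a rat (-0.0313) and leaving out week 8 (-0.00798), and limma-voom turned miR-200c-3p at week 4 (-0.0451). miR-429 from week 4 to 8 was 0.00617 with RLE factors, 0.0504 with edgeR's filter and 0.00590 with DESeq2. Of strong minus weak by week, limma-voom turned miR-200a-3p at baseline (-0.0198), and miR-141-3p and miR-429 at week 8 were positive with library size (0.10 and 0.0434) and limma-voom (0.0482 and 0.0238). The difference in change to week 8 of miR-200a-3p was positive with library size (0.0360), limma-voom (0.0691) and the block (0.0512), and that to week 4 of miR-429 was -0.52 with UniSp2 scaling. UniSp2 scaling acts by its own construction, and the cause of the other sign changes was not tested.

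Leaving out 1 rat, signs changed within these ranges: miR-429 at week 1, -0.19 to 0.0284; at week 4, miR-200b-3p -0.0187 to 0.21 and miR-200c-3p -0.11 to 0.31; from week 4 to 8, miR-200c-3p -0.0368 to 0.24 and miR-429 -0.13 to 0.0643. Strong minus weak over all weeks ran from -0.22 to 0.0926 (miR-200a-3p), -0.21 to 0.0312 (miR-200b-3p), -0.29 to 0.0279 (miR-200c-3p) and -0.32 to 0.0303 (miR-429). At baseline it ran from -0.19 to 0.23 (miR-200a-3p) and -0.27 to 0.0102 (miR-200b-3p), at week 1 from -0.00177 to 0.26 (miR-200c-3p), -0.00486 to 0.39 (miR-141-3p) and -0.12 to 0.22 (miR-429), and at week 4 from -0.52 to 0.0493 (miR-429). At week 8 it ran from -0.23 to 0.35 (miR-200a-3p), -0.13 to 0.53 (miR-200b-3p), -0.18 to 0.17 (miR-141-3p) and -0.20 to 0.29 (miR-429). The difference in change ran from -0.10 to 0.44 (miR-429, week 4) and -0.12 to 0.31 (miR-200a-3p, week 8). Without rat 25, miR-200c-3p and miR-429 at week 8 were 0.0096 and 0.075. Ratios past the threshold numbered 3 to 6 and correlations 34 to 38. Depth limits miR-200b-3p and the opposite arms most.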
